A study of Mus musculus with 18 samples.

Results

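The 10 C-type lectin receptors described here, *Clec9a*, *Clec10a*, *Clec12a*, *Clec7a*, *Clec5a*, *Clec4a1*, *Clec4a2*, *Clec4a3*, *Clec4d* and *Clec4e*, were taken by their symbols from the expression tables of 3 sorted bone marrow populations, which together list 19919 genes. All 10 were listed in each table. RNA-seq was performed on multipotent progenitors (MPPs), CD115- common dendritic cell progenitors (CD115- CDPs) and common lymphoid progenitors (CLPs) of C57BL/6 mice aged 6 to 8 weeks. Wild-type (WT) mice were Trim33fl/fl, carrying floxed *Trim33* alleles without Cre, and knockout (KO, Trim33-/-) mice were Trim33fl/fl Cre-ERT2, so the floxed alleles are shared by both genotypes. Cre removes exons 2 to 4 of *Trim33*, which encodes a chromatin-associated TRIM protein. Deletion was induced by 2 mg of tamoxifen given on each of 5 days, and the mice were analysed after a further 7 days. The study's text describes tamoxifen treatment for the mice of both genotypes behind the RNA-seq values, while the sample labels do not state whether WT mice received it. Cre-ERT2 acts throughout the body, so the deletion was not limited to the sorted cells. MPPs were gated as CD34+ FLT3+ cells of the lineage-negative, Sca-1+ CD117+ fraction. CD115- CDPs were gated as FLT3+ cells with intermediate CD117 and without CD115, CD127 or CD11c, and CLPs as FLT3+ CD127+ cells that also carried Sca-1 and CD117. Each genotype had 3 libraries in each population, 18 in all, which the labels describe as biological repeats.

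C-type lectin receptors carry an extracellular lectin-like domain and are used by dendritic cells, monocytes, macrophages and neutrophils to bind sugars, lipids and products of dead cells. Some signal through the kinase SYK, either by a short activating motif of their own (CLEC9A, CLEC7A) or by pairing with the adaptors encoded by *Fcer1g* and *Tyrobp* (CLEC4D, CLEC4E, CLEC5A), and SYK passes the signal on through CARD9, BCL10 and MALT1. Others (CLEC12A, CLEC4A2) carry an inhibitory motif that recruits phosphatases. Several of them serve as surface markers of the dendritic and monocytic lineages, and CLEC9A is the classic marker of type 1 conventional dendritic cells (cDC1s) and their committed precursors.

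Of these receptor genes, 9 lie on chromosome 6 and *Clec10a* on chromosome 11 (chr11:70166623-70170836, GRCm38, the build also called mm10). *Clec4a1*, *Clec4a3*, *Clec4a2*, *Clec4d* and *Clec4e* lie within 368 kb (chr6:122921848-123289871), *Clec12a*, *Clec9a* and *Clec7a* lie within 123 kb (chr6:129349783-129472785), and *Clec5a* lies apart at chr6:40574898-40585805. Because these neighbours behaved differently from each other, promoters are shown for 5 of them, taken from RefSeq on GRCm38.p6. *Clec9a* (chr6:129408612-129408911, plus strand), *Clec7a* (chr6:129472730-129473029, minus strand), *Clec4a1* (chr6:122921598-122921897, plus strand) and *Clec4a3* (chr6:122952265-122952564, plus strand) were each called lower with the KO label in MPPs, CD115- CDPs or CLPs. *Clec12a* (chr6:129349994-129350293, plus strand) is shown as a receptor gene near *Clec9a* whose level was similar in both genotypes of CLPs. Each sequence runs 5′ to 3′ along the gene's strand, from 250 bases before the transcript start to 50 bases after it, with matches to the 4 motifs searched in capitals.
Clec9a: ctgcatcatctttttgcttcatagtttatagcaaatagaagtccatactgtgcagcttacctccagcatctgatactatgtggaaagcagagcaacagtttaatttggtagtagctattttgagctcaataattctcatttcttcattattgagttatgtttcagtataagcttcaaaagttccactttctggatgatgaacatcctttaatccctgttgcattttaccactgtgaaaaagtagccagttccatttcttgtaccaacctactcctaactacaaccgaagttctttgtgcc
Clec7a: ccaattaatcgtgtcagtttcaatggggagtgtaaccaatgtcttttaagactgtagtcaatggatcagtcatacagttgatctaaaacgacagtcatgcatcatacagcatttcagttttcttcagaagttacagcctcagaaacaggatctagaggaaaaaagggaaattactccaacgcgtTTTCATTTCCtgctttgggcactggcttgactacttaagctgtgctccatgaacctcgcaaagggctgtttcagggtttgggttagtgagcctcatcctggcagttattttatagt
Clec4a1: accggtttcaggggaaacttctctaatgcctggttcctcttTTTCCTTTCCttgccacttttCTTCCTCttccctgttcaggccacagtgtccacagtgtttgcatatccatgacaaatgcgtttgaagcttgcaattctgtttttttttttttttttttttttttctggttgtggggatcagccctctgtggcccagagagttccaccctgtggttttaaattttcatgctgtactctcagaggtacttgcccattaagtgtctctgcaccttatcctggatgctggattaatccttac
Clec4a3: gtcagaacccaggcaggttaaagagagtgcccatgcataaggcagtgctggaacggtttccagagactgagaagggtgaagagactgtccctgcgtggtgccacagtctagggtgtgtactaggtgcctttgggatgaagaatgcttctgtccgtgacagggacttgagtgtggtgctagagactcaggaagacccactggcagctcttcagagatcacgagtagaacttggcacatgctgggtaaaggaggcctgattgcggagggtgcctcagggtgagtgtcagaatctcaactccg
Clec12a: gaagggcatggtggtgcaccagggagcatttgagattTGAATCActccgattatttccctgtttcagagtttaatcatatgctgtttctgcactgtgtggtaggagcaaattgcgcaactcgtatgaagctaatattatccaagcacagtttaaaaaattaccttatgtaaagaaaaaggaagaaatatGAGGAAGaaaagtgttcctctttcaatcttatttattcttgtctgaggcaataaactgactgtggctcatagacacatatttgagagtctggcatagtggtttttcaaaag

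The motifs, searched on both strands, were the core GAGGAAG bound by PU.1, the composite element of ETS and IRF factors (EICE, GGAA and GAAA with 2 bases between), the interferon response core (GAAA and GAAA with 2 bases between) and the AP-1 core TGANTCA. Over 32851 promoters of this length they were present in 13.6%, 2.72%, 3.44% and 7.81%. The table held promoters of 9 of the 10 receptor genes. *Clec12a* had a PU.1 core starting 61 bases before the transcript start and an AP-1 core 213 bases before it. *Clec7a* had an EICE match 66 bases before its start, on the opposite strand. *Clec4a1* had an EICE match 209 bases and a PU.1 core 188 bases before its start, both on the opposite strand. None of the 4 motifs was found in the promoters of *Clec9a*, *Clec4a3* or *Clec4e*. *Clec5a* held 2 PU.1 cores, at 82 and 56 bases before its start, *Clec4d* held a PU.1 core at 241 bases before its start and an interferon response core beginning at the start itself, and *Clec4a2* held an AP-1 core 31 bases after it. No matches overlapped in these promoters. These are matches of letters in a short window and do not show binding.

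Levels are given in FPKM (mapped fragments divided by transcript length in kilobases and by the size of the library), which can be compared between genes because transcript length is divided out. Depth, estimated from the steps between low FPKM values, was 19.3 to 21.2 M mapped reads per library (M for mega), where 1 read was worth between 0.0133 FPKM (*Clec5a*, the longest transcript) and 0.0393 FPKM (*Clec4a3*, the shortest). The targeted gene was examined first. *Trim33* was 8.78 to 10.42 FPKM in WT MPPs and 9.71, 11.66 and 4.80 FPKM in the libraries labelled KO. It was 8.27 to 15.23 against 4.03 to 9.64 FPKM in CD115- CDPs and 7.01 to 12.36 against 5.60 to 7.66 FPKM in CLPs. *Trim33* therefore overlapped between the genotypes in every population, and since a gene-level FPKM still counts transcripts that lack exons 2 to 4, the KO groups are called KO-labelled. The sorted identities were visible in RNA, with *Kit* at 71.63 to 74.80 FPKM in WT MPPs and *Il7r* at 32.56 to 63.03 FPKM in WT CLPs. In KO-labelled MPPs *Kit* was at 29.92 to 49.88 FPKM, without overlap with WT, and the summed level of 7 genes used in sorting was 650 to 859 FPKM against 865 to 939 FPKM in WT MPPs. The part of this difference in the MPP results was not tested. *Csf1r*, which encodes CD115, was nevertheless at 39.11 to 136.77 FPKM in WT CD115- CDPs. *Il7r*, which encodes CD127, was at 5.34 to 20.60 FPKM there, and *Itgax*, which encodes CD11c, at 15.72 to 23.29 FPKM. Libraries numbered 3 stood apart in CD115- CDPs, where 8 monocyte markers summed to 2314 FPKM in WT 3 against 339 and 234 FPKM in the other WT libraries, and 8 neutrophil markers summed to 3534 and 3145 FPKM in WT 3 and KO 3 against at most 899 FPKM in the other 4 libraries. In KO 3 most of this sum was *Mpo*, at 2117.18 FPKM against 331.57 and 247.57 FPKM in KO 1 and KO 2. *Elane* was at 265.48 against 33.67 and 23.12 FPKM there. *Camp* (57.89 against 53.77 and 43.0 FPKM) and *Ltf* (33.63 against 27.87 and 18.22 FPKM) stood less apart. Genotype differences in this population are therefore also given without the libraries numbered 3, for the genes that then passed the filter.

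**Figure D1:**
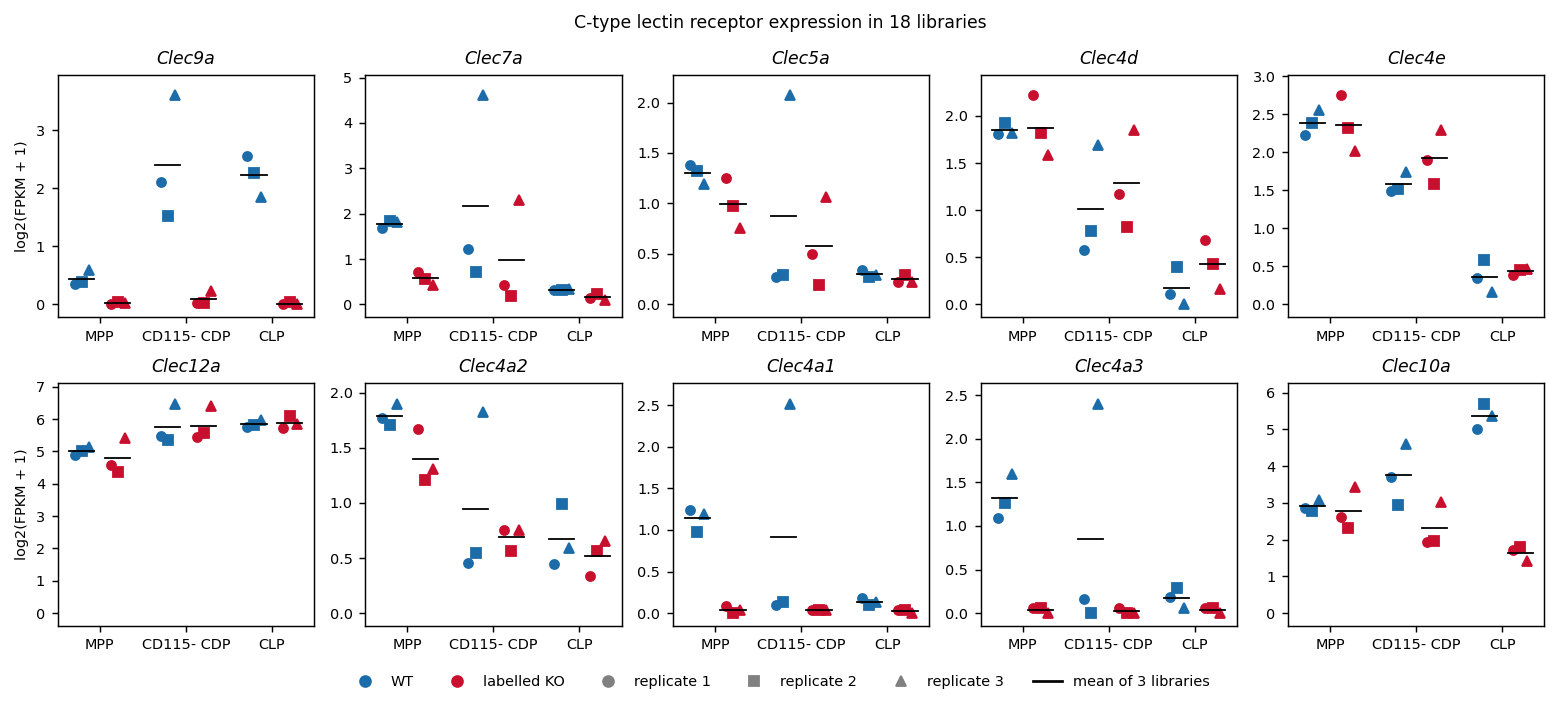
Expression of the 10 receptor genes in all 18 libraries, as log2(FPKM + 1) on the vertical axis, with WT libraries in blue, KO-labelled libraries in red, marker shapes for the replicate numbers and black lines for the mean of 3 libraries. *Clec9a* lies near 0 in all 9 KO-labelled libraries, *Clec12a* stays high throughout, and the WT 3 library of CD115- CDPs sits above the other WT libraries for each gene plotted.

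The comparison of KO-labelled with WT libraries asked which receptor genes depend on TRIM33 in each progenitor. A gene was called where limma on log2(FPKM + 1) gave a p of 0.05 or less after Benjamini-Hochberg adjustment together with a log2 fold change of 1 or more in size, among genes whose mean over a population's 6 libraries reached 0.5 FPKM. Of the receptor genes, tests covered 9 in MPPs, 10 among CD115- CDPs and 4 in CLPs. In MPPs 3 were called lower (*Clec7a*, *Clec4a1* and *Clec4a3*), where 1.32% of all genes tested were. In CLPs 2 were called lower (*Clec10a* and *Clec9a*), where 2.84% of all genes tested were, and the count was the same with the replicate number as a block, where 3.11% were. In CD115- CDPs none was called by limma, where 0.0654% of all genes were called lower, and *Clec9a* and *Clec10a* had an unadjusted p under 0.05. The replicate numbers were used as pairs in CD115- CDPs, although the labels do not state a pairing. With this replicate block *Clec9a* and *Clec10a* were called lower in that population, where 1.46% of all genes tested were. No receptor gene was called higher by limma in KO-labelled MPPs, CD115- CDPs or CLPs, where 0.162%, 0.0409% and 0.673% of all genes tested were. Nor was any receptor gene higher with an unadjusted p under 0.05, a threshold at which all genes were not counted. Over all 10 receptor genes, fitted without the filter on low values, the median log2 fold change was -0.35 (MPPs), -0.56 (CD115- CDPs) and -0.12 (CLPs), beside -0.03, -0.03 and 0.00 over all genes so fitted. In CLPs 6 of the 10 were below the filter, and their log2 fold changes lay between -0.17 (*Clec7a*) and 0.25 (*Clec4d*). Scaling the libraries by median ratios moved the median of all genes in MPPs from -0.11 to 0.00 on the log2 scale and left the 3 calls in place. In these sorted pools, fewer cells expressing a receptor and less RNA per cell cannot be told apart.

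**Figure D2:**
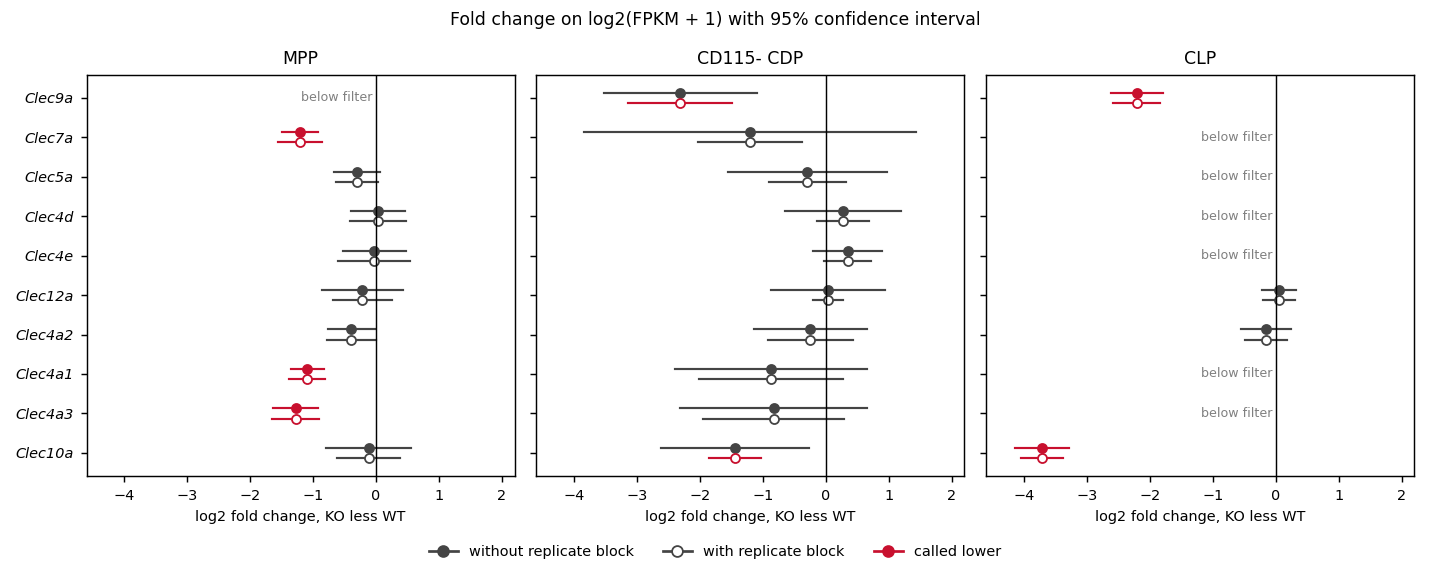
Log2 fold change of KO-labelled against WT libraries on the log2(FPKM + 1) scale for each receptor gene in each population, with 95% confidence intervals from limma, filled points without and open points with the replicate block, and red for genes called lower. *Clec10a* has the lowest value, in CLPs, the 3 calls in MPPs lie between -1.28 and -1.10, and genes whose mean was under 0.5 FPKM are marked as below the filter.

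*Clec9a* encodes DNGR-1, a receptor for actin filaments exposed by dead cells that supports cross-presentation by cDC1s. In CLPs it was at 4.89, 3.81 and 2.60 FPKM in WT libraries and was listed at 0, 0.03 and 0 FPKM in KO-labelled libraries. CD115- CDPs had 3.29, 1.88 and 11.14 FPKM in WT and 0.02, 0.02 and 0.17 FPKM in KO-labelled libraries. In MPPs it was at 0.27, 0.31 and 0.51 FPKM in WT and 0, 0.03 and 0.02 FPKM in KO-labelled libraries. The genotypes did not overlap in any population, and all KO-labelled libraries except CD115- CDP KO 3 were at or below the worth of about 2 reads. In CLPs the log2 fold change was -2.21 (SE 0.181, adjusted p = 0.000119 by limma). In CD115- CDPs it was -2.32 (SE 0.507, adjusted p = 0.253 by limma), with the replicate block SE 0.342 and adjusted p = 0.0210, and without both libraries numbered 3 it was -1.79 (adjusted p = 0.00457 by limma). In MPPs its mean was under 0.5 FPKM, so it was not among the genes tested there. Of its 50-base stretches 4.02% also occur in *Clec1b*, which was at no more than 0.18 FPKM in any library, and *Clec12b*, whose annotation overlaps *Clec9a*, was at no more than 0.10 FPKM.

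The summed level of 5 other cDC1 markers was also lower with the KO label. It was 2.84 to 3.49 FPKM in WT and 0.51 to 0.84 FPKM in KO-labelled CLPs, 1.53 to 6.88 against 0.64 to 0.72 FPKM in CD115- CDPs, and 0.85 to 1.43 against 0.38 to 0.77 FPKM in MPPs. In CLPs most of the difference lay in *Cadm1*, an adhesion molecule, at 1.63 to 2.16 FPKM in WT and at most 0.04 FPKM in KO-labelled libraries, and in *Tlr3*, a receptor for double-stranded RNA, at 0.50 to 0.62 and 0.09 to 0.14 FPKM. *Batf3*, which encodes a transcription factor of cDC1s, was at only 0.16 to 0.30 FPKM in WT CLPs and at most 0.08 FPKM in KO-labelled CLPs, with 0 listed in KO 1 and KO 3. *Xcr1* and *Itgae* overlapped between the genotypes of CLPs, at 0.32 to 0.47 against 0.24 to 0.48 FPKM and at 0.05 to 0.14 against 0.09 to 0.19 FPKM. The part of these few transcripts in the *Clec9a* result was not tested.

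*Clec10a* encodes MGL1, an endocytic receptor for galactose and N-acetylgalactosamine found on type 2 conventional dendritic cells and macrophages. In CLPs it was at 31.15, 50.51 and 40.48 FPKM in WT and 2.28, 2.47 and 1.65 FPKM in KO-labelled libraries. CD115- CDPs had 12.04, 6.75 and 23.44 FPKM in WT and 2.83, 2.91 and 7.21 FPKM in KO-labelled libraries. In MPPs it was at 6.20, 5.92 and 7.43 FPKM in WT and 5.16, 3.97 and 9.72 FPKM in KO-labelled libraries. The genotypes were far apart in CLPs, overlapped in CD115- CDPs through KO 3, which lay above WT 2, and overlapped in MPPs, where KO 3 was the highest library. The log2 fold change was -3.72 in CLPs (SE 0.185, adjusted p = 7.48e-06 by limma). In CD115- CDPs it was -1.44 (SE 0.492, adjusted p = 0.409 by limma), with the replicate block SE 0.172 and adjusted p = 0.0125, and the KO-labelled library was lower in 3 of 3 numbered pairs. Without both libraries numbered 3 it was -1.38 (adjusted p = 0.0300 by limma), in a fit where 1.29% of all genes were called lower. In MPPs the log2 fold change was -0.12 with a 95% interval from -0.80 to 0.56.

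*Clec10a* was the receptor gene whose genotype effect differed between populations by the interaction test over all 18 libraries, which was passed by 2.45% of the genes tested (F test in limma, adjusted p = 0.00471). The effect in CLPs was below that in MPPs by -3.60 (SE 0.546) and below that in CD115- CDPs by -2.28 (SE 0.546) on the log2 scale. With the replicate block, which 8.67% of genes passed, *Clec9a* passed as well (adjusted p = 0.0237 by limma, against 0.0741 without the block), with effects on the log2(FPKM + 1) scale of -1.79 in CLPs and -1.90 in CD115- CDPs relative to MPPs. *Clec9a* was near 0 in all 9 KO-labelled libraries, and its WT level was 0.363 ± 0.129 FPKM in MPPs against 3.77 ± 1.15 FPKM in CLPs (SD, n = 3). A fall to 0 was therefore a small one in MPPs on this scale (-0.42 when fitted without the filter), and the difference between effects on *Clec9a* restates the difference between WT levels. The other 8 receptor genes had adjusted p-values from 0.510 to 0.922 without the block by limma. *Clec10a* shares 16.2% of its 50-base stretches with its neighbouring paralog *Mgl2*, and reads in them could have been divided between the genes. *Mgl2* was at 1.19 to 2.22 FPKM in WT and 0.29 to 0.67 FPKM in KO-labelled CLPs, well below *Clec10a* in WT.

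A list of 6 plasmacytoid dendritic cell (pDC) markers also separated the genotypes in CLPs, with sums of 1515 to 1872 FPKM in WT and 361 to 385 FPKM in KO-labelled libraries, and *Klk1* listed at 0 in all 3 of the latter. In CD115- CDPs the sum was 426 to 793 FPKM in WT and 175 to 418 FPKM in KO-labelled libraries. In MPPs it was 134 to 154 FPKM in WT and 123 to 133 FPKM in KO-labelled libraries. Its part in the *Clec10a* result was not tested.

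*Clec7a* encodes dectin-1, the receptor for fungal beta-glucans. In MPPs it was at 2.21, 2.58 and 2.53 FPKM in WT and 0.64, 0.48 and 0.35 FPKM in KO-labelled libraries. CD115- CDPs had 1.32, 0.63 and 23.34 FPKM in WT and 0.35, 0.13 and 3.90 FPKM in KO-labelled libraries. In CLPs it was at 0.24, 0.24 and 0.27 FPKM in WT and 0.10, 0.17 and 0.07 FPKM in KO-labelled libraries. The genotypes did not overlap in MPPs or CLPs, while in CD115- CDPs the libraries numbered 3 were the highest of each genotype and KO 3 lay above WT 1 and WT 2. The log2 fold change in MPPs was -1.21 (SE 0.122, adjusted p = 0.00644 by limma), and leaving out WT 2 or WT 3 gave -1.18 and -1.19 with adjusted p = 0.0582 and 0.0579 by limma. In CD115- CDPs it was -1.21 (SE 1.10, adjusted p = 0.760 by limma) and with the replicate block SE 0.340 and adjusted p = 0.0736. Without both libraries numbered 3 it was -0.65 (adjusted p = 0.140 by limma), while leaving out WT 3 alone gave 0.01. In CLPs its mean was under the filter. The annotation of *Gm45969* overlaps *Clec7a*, and reads in the overlap were not assigned by strand as far as the sources used here state.

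*Clec4a1* and *Clec4a3* encode DCIR4 and DCIR3, relatives of the inhibitory receptor DCIR1. In MPPs *Clec4a1* was at 1.36, 0.97 and 1.29 FPKM in WT and 0.06, 0 and 0.03 FPKM in KO-labelled libraries. *Clec4a3* was at 1.13, 1.40 and 2.03 FPKM in WT and 0.04, 0.04 and 0 FPKM in KO-labelled libraries. Both genes were thus at the worth of 0 to about 2 reads in KO-labelled MPPs, without overlap with WT. Their log2 fold changes in MPPs were -1.10 (*Clec4a1*, SE 0.111, adjusted p = 0.00644 by limma) and -1.28 (*Clec4a3*, SE 0.148, adjusted p = 0.00998 by limma). Leaving out WT 2 gave -1.31 for *Clec4a3* with adjusted p = 0.0637 by limma, and leaving out WT 1 or WT 3 brought the mean of *Clec4a1* below the filter. Because a value of 1 is added before the logarithm, these fold changes are small for genes that were nearly absent from a group.

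In CD115- CDPs *Clec4a1* was at 0.07, 0.10 and 4.70 FPKM in WT and 0.03 FPKM in each KO-labelled library. *Clec4a3* was at 0.12, 0 and 4.26 FPKM in WT and 0.04, 0 and 0 FPKM in KO-labelled libraries. The WT level of both genes in this population therefore came mainly from WT 3, and neither passed the filter without the libraries numbered 3 or was called with or without the block (adjusted p = 0.260 for *Clec4a1* and 0.271 for *Clec4a3* with the block by limma). In CLPs *Clec4a1* was at 0.13, 0.07 and 0.10 FPKM in WT and 0.03, 0.03 and 0 FPKM in KO-labelled libraries. *Clec4a3* was at 0.14, 0.22 and 0.04 FPKM in WT and 0.04, 0.04 and 0 FPKM in KO-labelled libraries. All of these CLP values are worth under 10 reads, and both genes were below the filter there.

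The list of 8 monocyte markers summed to 560 to 577 FPKM in WT and 164 to 240 FPKM in KO-labelled MPPs, with none of the 8 at 0 in any library. The list of 8 neutrophil markers summed to 3225 to 3349 FPKM in WT and 1240 to 2188 FPKM in KO-labelled MPPs, and the list of 6 erythroid markers to 324 to 354 and 32.9 to 58.7 FPKM. In CLPs the monocyte sum was 255 to 328 FPKM in WT and 64.1 to 107 FPKM in KO-labelled libraries. Most of that difference lay in *Ly6c2*, which the study lists as pDC-associated. It was at 137.23 to 173.7 FPKM in WT and 3.37 to 10.15 FPKM in KO-labelled CLPs. *Csf1r* (14.47 to 26.28 against 5.05 to 7.37 FPKM) and *Ms4a6c* (25.0 to 31.54 against 3.99 to 8.02 FPKM) were also lower. *Lyz2* overlapped between the genotypes of CLPs, at 48.45 to 88.15 against 47.29 to 81.16 FPKM. In CD115- CDPs KO 3 had a monocyte sum of 397 FPKM where the other KO-labelled libraries had 137 and 116 FPKM. The part of cells of these types in the results on *Clec7a*, *Clec4a1* and *Clec4a3* was not tested.

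**Figure D3:**
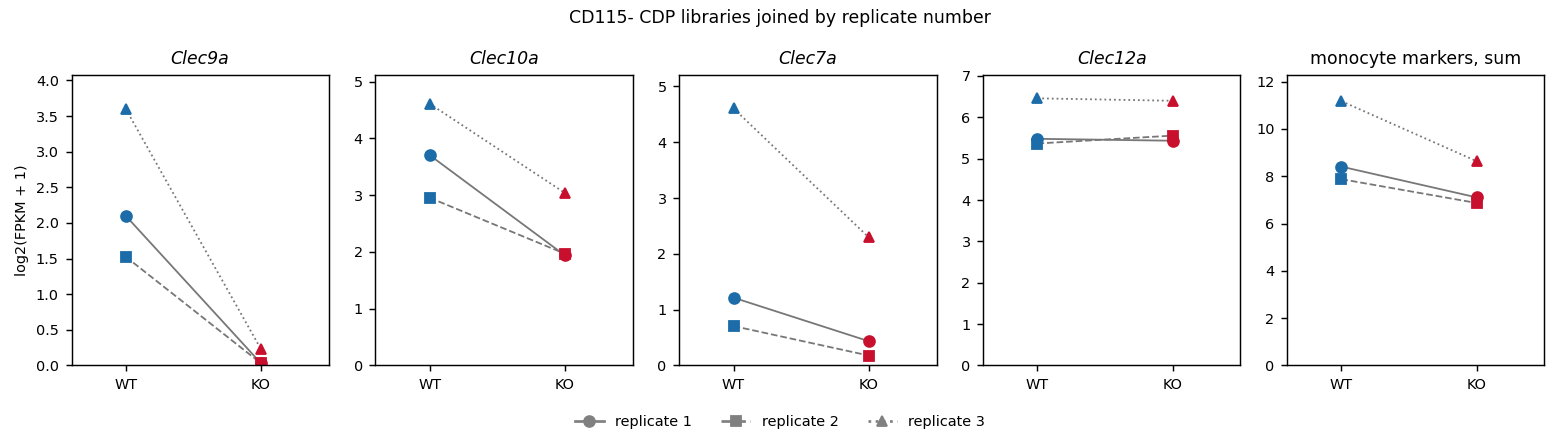
*Clec9a*, *Clec10a*, *Clec7a*, *Clec12a* and the sum of 8 monocyte markers in CD115- CDPs, as log2(FPKM + 1), with the WT and KO-labelled libraries of each replicate number joined by a line. *Clec9a* and *Clec10a* go down in 3 of 3 pairs, *Clec12a* stays nearly level in each pair, and replicate 3 has the highest value of its genotype in each panel.

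*Clec12a* encodes MICL, an inhibitory receptor for uric acid crystals released by dead cells, and had the highest level of the receptor genes in all 18 libraries. It made up 49.1% to 76.2% of their summed FPKM in WT libraries and 93.2% to 95.1% in KO-labelled CLPs. In MPPs it was at 28.56, 30.93 and 34.37 FPKM in WT and 23.03, 19.55 and 41.81 FPKM in KO-labelled libraries. CD115- CDPs had 43.65, 40.27 and 87.00 FPKM in WT and 42.23, 46.10 and 83.47 FPKM in KO-labelled libraries. The genotypes overlapped in both, with the libraries numbered 3 the highest of each genotype. In CLPs it was at 53.44, 54.94 and 61.60 FPKM in WT and 52.24, 66.96 and 56.98 FPKM in KO-labelled libraries, again with overlap. The log2 fold change in CLPs was 0.05 with a 95% interval from -0.22 to 0.31, and in CD115- CDPs 0.03 with an interval from -0.21 to 0.26 with the replicate block and from -0.88 to 0.93 without it, and it was 0.07 without both libraries numbered 3. *Clec9a*, whose gene lies within the same 123 kb, was near 0 in the same KO-labelled CLP libraries. In MPPs the log2 fold change was -0.22 (adjusted p = 0.604 by limma), and without KO 3 it was -0.54 with adjusted p = 0.00790, which is still short of the fold required for a call.

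*Clec4a2* encodes DCIR1, which carries an inhibitory motif. It was at 2.26 to 2.72 FPKM in WT and 1.31 to 2.18 FPKM in KO-labelled MPPs, without overlap, but its log2 fold change of -0.39 (adjusted p = 0.187 by limma) was not a call. In CD115- CDPs it was at 0.37, 0.46 and 2.54 FPKM in WT and 0.48 to 0.69 FPKM in KO-labelled libraries, with a log2 fold change of -0.25 that turned to 0.16 without both libraries numbered 3, and in CLPs at 0.36 to 0.98 and 0.26 to 0.57 FPKM. Of its 50-base stretches 7.62% also occur in other genes, mainly *Clec4a4* and *Clec4b1*. Its 95% intervals in CLPs were -0.55 to 0.23 and in MPPs -0.76 to -0.02 on the log2 scale. *Clec5a*, which encodes MDL-1 and in CD115- CDPs was below the filter without the libraries numbered 3, was at 1.28 to 1.61 FPKM in WT and 0.69 to 1.38 FPKM in KO-labelled MPPs (log2 fold change -0.31, adjusted p = 0.263 by limma). CD115- CDPs had 0.21, 0.22 and 3.20 FPKM in WT and 0.41, 0.14 and 1.09 FPKM in KO-labelled libraries, and in CLPs no library was above 0.27 FPKM.

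*Clec4d* and *Clec4e* encode MCL and mincle, a pair of receptors for mycobacterial glycolipids whose genes lie next to each other. In MPPs *Clec4e* was at 3.69 to 4.87 FPKM in WT and 3.04 to 5.73 FPKM in KO-labelled libraries, and *Clec4d* at 2.49 to 2.79 and 2.01 to 3.65 FPKM. Their log2 fold changes in MPPs were -0.03 (*Clec4e*, 95% interval -0.53 to 0.47) and 0.02 (*Clec4d*, -0.40 to 0.45), and the sign of that of *Clec4e* turned with median ratio scaling. The KO-labelled ranges contained the WT ranges of both genes. In CD115- CDPs *Clec4e* was at 1.82, 1.86 and 2.36 FPKM in WT and 2.74, 2.01 and 3.91 FPKM in KO-labelled libraries. *Clec4d* was at 0.49, 0.71 and 2.22 FPKM in WT and 1.26, 0.77 and 2.61 FPKM in KO-labelled libraries. The KO-labelled library had the higher value in 3 of 3 numbered pairs for both genes, without a call (log2 fold change 0.34 for *Clec4e* and 0.27 for *Clec4d*, adjusted p = 0.186 and 0.319 with the replicate block by limma). Without both libraries numbered 3 these were 0.24 and 0.33 on the log2 scale. In CLPs both were at no more than 0.60 FPKM in any library.

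The receptor genes whose KO-labelled libraries all lay below all WT libraries numbered 5 in MPPs (*Clec9a*, *Clec7a*, *Clec4a1*, *Clec4a2* and *Clec4a3*), where 18.2% of all genes listed did the same. They numbered 2 in CD115- CDPs (*Clec9a* and *Clec4a1*), beside 8.47% of all genes, and 4 in CLPs (*Clec9a*, *Clec10a*, *Clec7a* and *Clec4a1*), beside 15.2%. Among genes whose mean reached 0.5 FPKM the shares were 23.3% (MPPs), 10.6% (CD115- CDPs) and 18.6% (CLPs). *Clec9a* and *Clec4a1* were in all 3 sets. For *Clec4a1* this rested on very few reads outside MPPs, as 1 read was worth 0.0326 FPKM. In CD115- CDPs it was at 0.03 FPKM in each KO-labelled library and at 0.07 and 0.10 FPKM in WT 1 and WT 2. In CLPs its highest KO-labelled value was 0.03 FPKM and its lowest WT value 0.07 FPKM. The neighbours *Clec4d* and *Clec4e* at one end of the same cluster as *Clec4a1* were in none, nor was *Clec12a*.

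The WT libraries were compared between populations to place the receptors along these progenitors. All 10 receptor genes were tested among 12528 genes in a fit over the 9 WT libraries. The values of each population were deposited as a table of its own, so a difference between populations and a difference between tables cannot be told apart. *Clec12a* was the highest receptor gene in WT MPPs (31.3 ± 2.92 FPKM, SD, n = 3), followed by *Clec10a* (6.52 ± 0.803) and *Clec4e* (4.26 ± 0.591). *Clec4d*, *Clec4a2* and *Clec7a* followed between 2.21 and 2.79 FPKM with overlapping libraries, then *Clec4a3*, *Clec5a* and *Clec4a1* between 0.97 and 2.03 FPKM, again overlapping, and *Clec9a* was lowest. In WT CLPs *Clec12a* (56.7 ± 4.34 FPKM) and *Clec10a* (40.7 ± 9.68 FPKM) led and their libraries did not overlap, *Clec9a* came next at 3.77 ± 1.15 FPKM, and no WT library was above 0.98 FPKM for any of the other 7. The WT CLP receptor RNA was thus mostly that of *Clec12a* and *Clec10a*.

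*Clec9a* was higher in WT CD115- CDPs than in WT MPPs, by 1.97 on the log2 scale (SE 0.452, adjusted p = 0.0158 by limma). It was the call in that direction among the receptor genes, where 1.82% of all genes were called higher and 5.16% lower. *Clec10a* (2.45, SE 0.364, adjusted p = 0.00153 by limma) and *Clec9a* (1.78, SE 0.452, adjusted p = 0.0206 by limma) were higher in WT CLPs than in WT MPPs, where 3.92% of all genes were. In the same comparison *Clec4e* (-2.03, SE 0.153, adjusted p = 4.11e-05 by limma), *Clec4d* (-1.68, SE 0.262, adjusted p = 0.00202 by limma) and *Clec4a2* (-1.12, SE 0.332, adjusted p = 0.0384 by limma) were lower, where 4.78% of all genes were. Between WT CLPs and WT CD115- CDPs, *Clec10a* was higher in CLPs (1.60, adjusted p = 0.0291 by limma) and *Clec4e* lower (-1.22, adjusted p = 0.00273 by limma), where 2.23% and 0.774% of all genes were. The calls over all genes in that comparison were 279 higher and 97 lower, and with median ratio scaling 213 higher and 121 lower. The call on *Clec9a* against MPPs was lost in CD115- CDPs (adjusted p up to 0.0594 by limma) when WT 1 or WT 2 of MPPs was left out, and in CLPs (up to 0.0690) when any MPP library or WT 1 or WT 2 of CLPs was left out. That on *Clec4a2* was lost in 8 of 13 alternatives, namely without any single MPP or CLP library (up to 0.119), with a pseudocount of 0.1 (0.0512) and without the filter (0.0520), and that on *Clec10a* against CD115- CDPs (up to 0.111) when any MPP library, WT 1 of CD115- CDPs, or WT 2 or WT 3 of CLPs was left out. *Clec10a* was called higher in WT CD115- CDPs than in WT MPPs when WT 2 of CD115- CDPs was left out (1.25, adjusted p = 0.0198 by limma, against 0.85 and 0.126 with it). The calls on *Clec10a*, *Clec4d* and *Clec4e* between WT CLPs and WT MPPs held without each library in turn.

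The library WT 3 decided much of the comparison with CD115- CDPs. By limma none of the 10 was called lower in WT CD115- CDPs than in WT MPPs with it. At an unadjusted p under 0.05 by limma 3 were lower and 3 higher, a threshold at which all genes were not counted. Without WT 3, 5 were called lower by limma (*Clec5a*, *Clec4a1*, *Clec4a2*, *Clec4a3* and *Clec4d*), with log2 fold changes from -1.29 to -1.02. In that fit 8.02% of all genes were called lower, against 5.16% with the library. The log2 fold change of *Clec7a* went from 0.39 to -0.82. Without that library 6 receptor genes, rather than 3, were called lower in WT CLPs than in WT MPPs, since the spread is shared over the WT libraries, and 5.39% of all genes were called lower there against 4.78%. *Clec9a* remained higher than in WT MPPs without it, by 1.37 (adjusted p = 0.00122 by limma). Median ratio scaling moved the median of all genes between WT CD115- CDPs and WT MPPs from -0.10 to 0.02 on the log2 scale and left the number of receptor genes called at 1.

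**Figure D4:**
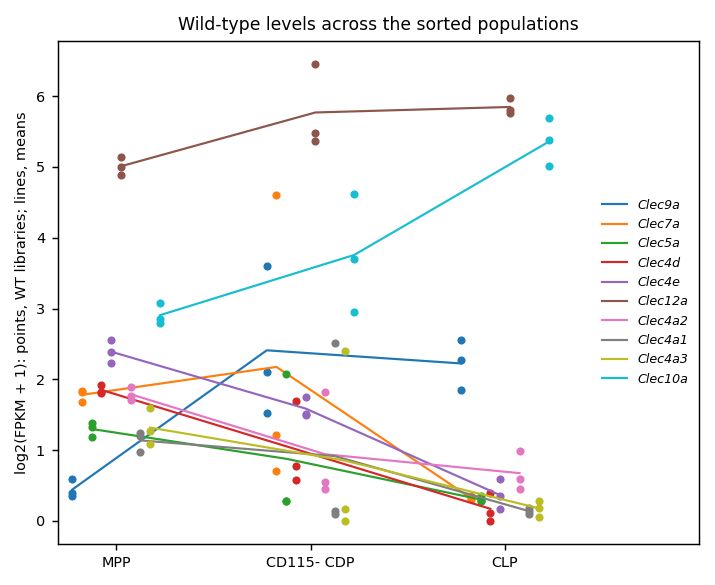
WT levels of the 10 receptor genes in the 3 populations as log2(FPKM + 1), with 1 point per library and lines through the means of 3 libraries. *Clec12a* is highest throughout, *Clec10a* and *Clec9a* are higher in CLPs than in MPPs, *Clec4d* and *Clec4e* are lower in CLPs, and WT 3 lies far above the other CD115- CDP libraries for *Clec7a*, *Clec5a*, *Clec4a1* and *Clec4a3*.

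The SYK pathway was described with a list of 16 adaptors, kinases and phosphatases, all of which were tested in the 3 populations. In CLPs 2 were called lower and none higher, namely *Tyrobp* (log2 fold change -2.90, SE 0.180, adjusted p = 2.37e-05 by limma) and *Fcer1g* (-1.95, SE 0.143, adjusted p = 6.09e-05 by limma), which encode the adaptors DAP12 and FcRγ. Of all genes tested in CLPs, 2.84% were called lower and 0.673% higher. In CD115- CDPs none was called without the block, where 4 were lower at an unadjusted p under 0.05 by limma, and with the replicate block *Tyrobp* (-1.69, adjusted p = 0.00203) and *Fcer1g* (-1.02, adjusted p = 0.0283) were. Of all genes tested there, 0.0654% were called lower without the block and 1.46% with it. The share of all genes at an unadjusted p under 0.05 was not counted in any population. Without both libraries numbered 3 of CD115- CDPs, where 1.29% of all genes were called lower, *Tyrobp* was called (-1.62, adjusted p = 0.00156 by limma) and *Fcer1g* fell short of the fold required (-0.81, adjusted p = 0.0462 by limma). In MPPs, where 1.32% of all genes tested were called lower, none was called by limma, 4 were lower at an unadjusted p under 0.05, and *Fcer1g* and *Tyrobp* had log2 fold changes of -0.71 and -0.86 with adjusted p = 0.0273 and 0.0214 by limma, short of the fold required. *Fcer1g* was at 115 to 160 FPKM in WT and 30.95 to 38.28 FPKM in KO-labelled CLPs, so it was still present where *Clec9a* was nearly absent. *Card9* was at 9.65 to 15.32 FPKM in WT and 5.32 to 6.32 FPKM in KO-labelled CLPs (log2 fold change -0.87, adjusted p = 0.0133 by limma). *Syk* had a log2 fold change of -0.41 in CLPs (adjusted p = 0.0234 by limma). *Ptpn6* and *Prkcd* were lower there too, also without a call (-0.81 and -0.75, adjusted p = 0.0015 and 0.000963 by limma). At an unadjusted p under 0.05 by limma, 9 of the list were lower in CLPs and 0 higher. The 16 had a median log2 fold change of -0.11 (MPPs), -0.29 (CD115- CDPs) and -0.25 (CLPs), beside -0.11, -0.07 and 0.01 over all genes.

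Of 27 other lectin receptor genes, 13, 13 and 14 passed the filter in MPPs, CD115- CDPs and CLPs. In CLPs, where 2.84% of all genes tested were called lower and 0.673% higher, 4 were called lower and none higher. They were *Cd209a*, an endocytic receptor of the DC-SIGN family (-1.87, adjusted p = 2.51e-05 by limma), its relative *Cd209d* (-1.29, adjusted p = 0.00530 by limma), and *Klrd1* and *Klrk1*, which encode CD94 and NKG2D (-1.93 and -1.22, adjusted p = 0.00181 and 0.000435 by limma). *Cd209a* was at 2.47 to 2.90 FPKM in WT and at most 0.04 FPKM in KO-labelled CLPs, a pattern like that of *Clec9a*. *Ly75* was higher in KO-labelled CLPs, short of the fold required (log2 fold change 0.62, adjusted p = 0.0266 by limma). At an unadjusted p under 0.05 by limma, 8 of the list were lower in CLPs and 3 higher, without a count over all genes. In MPPs *Clec2d* alone was called lower (-1.58, adjusted p = 0.0470 by limma), and in CD115- CDPs *Klrd1* was (-1.84, adjusted p = 0.0401 by limma), joined by *Klrk1* and *Klrb1f* with the replicate block. Of all genes tested, 1.32% were called lower in MPPs and 0.0654% in CD115- CDPs, or 1.46% in CD115- CDPs with the block. Without both libraries numbered 3 of CD115- CDPs, where 1.29% of all genes were called lower, *Klrd1* (-1.69) and *Klrk1* (-1.13) were called (adjusted p = 0.00308 and 0.0240 by limma).

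**Figure D5:**
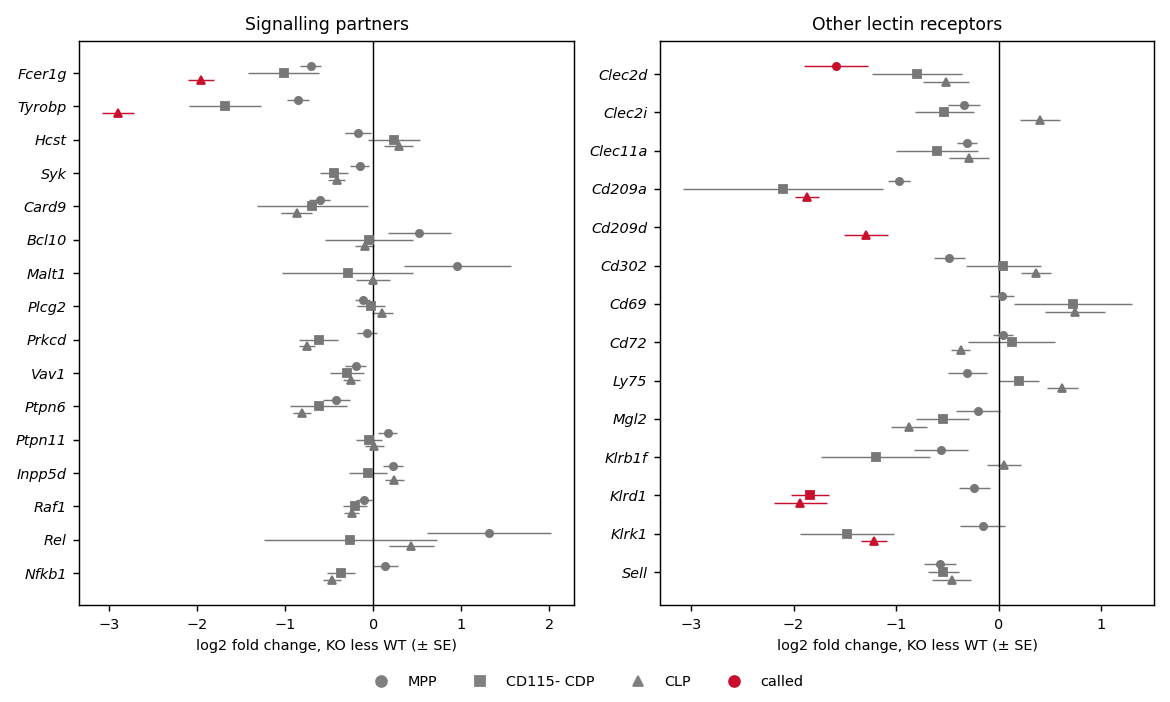
Log2 fold change (± SE) of KO-labelled against WT libraries for the signalling partners and the other lectin receptor genes that passed the filter, with circles for MPPs, squares for CD115- CDPs and triangles for CLPs, and red for genes called without the replicate block. *Tyrobp* and *Fcer1g* have the lowest values among the partners, in CLPs, and most other partners lie within 1 of no change.

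The genes whose log2(FPKM + 1) followed that of *Clec9a* most closely over the 18 libraries, among 11437 genes whose mean reached 1 FPKM, were *Lyn* (Pearson r = 0.964), *Anxa6* (0.962), *Ptpro* (0.961), *Ifi30* (0.956) and *Stx7* (0.955). Those closest to *Clec12a* were *Fh1* (0.941), *Tmem173* (0.928), *BC035044* (0.906), *BC064078* (0.902) and *Dynlt1b* (0.898). No gene was among the 5 closest of both. The libraries share population, genotype and the states of the CD115- CDP libraries numbered 3, so these values are descriptions of a shared pattern.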

How the data were processed

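Total RNA of sorted bone marrow progenitors was made into poly(A)-selected libraries, 3 per genotype in each of 3 populations, and read as single 50-base reads. The authors mapped reads to mm10 with HISAT2 2.0.4, and for expression with Bowtie2 2.2.5, and deposited FPKM per gene computed with RSEM 1.2.12 and rounded to 2 decimals, in 1 table per population. These values are not counts, and the authors' count-based tests were not repeated.

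Genes whose mean reached 0.5 FPKM were tested on log2(FPKM + 1) with limma 3.58.1 (lmFit and eBayes with a trend) in R 4.3.3, with Benjamini-Hochberg adjustment over all genes tested. KO-labelled and WT libraries were compared within each population, WT populations in a fit over 9 libraries, and the interaction of population and genotype by an F test over 18. Calls required an adjusted p of at most 0.05 and a log2 fold change of at least 1 in size, and the interaction test the former alone. Fold changes on this scale understate the change of genes with low values.

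WT and KO-labelled libraries share the replicate numbers 1 to 3 in the labels. Deviations from the group means of same-numbered libraries correlated with r = 0.437 to 0.790 in CD115- CDPs and 0.131 to 0.400 in CLPs. Those of differently numbered libraries correlated with r = -0.784 to 0.663 in CD115- CDPs and -0.399 to 0.234 in CLPs. The ranges overlap, so these values do not establish a pairing. The numbers were used as an assumed pairing of those libraries, and fits with the replicate number as a block are given where they changed a call. Where nothing further is known of the animals behind each library, p-values measure the spread between these libraries.

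The receptor genes, the other gene lists, the markers and the tests were chosen with earlier results of these data known. The text names every receptor gene, the called members of the other lists, and the 5 genes most like *Clec9a* and *Clec12a*. *Card9*, *Syk*, *Ptpn6*, *Prkcd*, *Mgl2* and *Ly75* were named after their values were seen. Depth was estimated from the steps of FPKM multiplied by the length of genes with 1 transcript in GENCODE vM21. Positions and promoters were taken from RefSeq for GRCm38, and shared 50-base stretches were counted over GENCODE transcripts. The fits were tested on simulated data. Alternatives used no filter, a pseudocount of 0.1, rescaling to TPM, median ratio scaling, the replicate block and leaving out each library. Leaving out both libraries numbered 3, and the block with a pseudocount of 0.1, were added after seeing the data.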

Additional observations from a re-analysis of the deposited data

Results flagged for a closer look

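*Clec10a* had a genotype effect that differed between populations by the interaction test over 18 libraries (adjusted p = 0.00471 by the F test in limma). KO-labelled libraries differed from WT by -0.12 (MPPs), -1.44 (CD115- CDPs) and -3.72 (CLPs) on the log2 scale, and the KO-labelled library was lower in 3 of 3 numbered pairs in CD115- CDPs and in CLPs. The adjusted p stayed at or under 0.0196 by limma in each of 21 alternatives. WT levels also differed between the populations, at 6.52 ± 0.803 FPKM in MPPs, 14.1 ± 8.53 FPKM in CD115- CDPs and 40.7 ± 9.68 FPKM in CLPs (SD, n = 3), while the KO-labelled means were 6.28 ± 3.04, 4.32 ± 2.51 and 2.13 ± 0.429 FPKM. In KO-labelled libraries the level was thus lowest in the population where it was highest in WT. The sum of 6 pDC markers was lower in KO-labelled CLPs as well, and its part in this result was not tested.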

How the results depend on the processing

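The 2 calls in CLPs held under all alternatives, and the 3 in MPPs under each that kept all libraries. MPP numbers were not taken as pairs, and the replicate block kept the 3 calls there. Same-numbered MPP libraries had r = 0.0382 to 0.482 and differently numbered ones r = -0.492 to 0.262. These ranges overlap as in the other populations, so the choice of where to pair does not follow from r. In CD115- CDPs 2 receptor genes were called lower with the replicate block and 3 when a pseudocount of 0.1 was used with it, and the block changed no other call on a receptor gene within a population. Leaving out libraries gave 1 to 3 calls in MPPs and 0 to 2 in CD115- CDPs, where no single library changed the count of 0 and both libraries numbered 3 together gave 2. Among WT populations it gave 0 to 5 lower and 0 to 2 higher in CD115- CDPs against MPPs, 2 to 6 lower and 1 to 2 higher in CLPs against MPPs, and 0 to 1 higher in CLPs against CD115- CDPs, where a pseudocount of 0.1 gave 2 lower. The interaction test was passed by 2 receptor genes with median ratio scaling and with the replicate block, and by 1 to 2 when libraries were left out. Small differences changed sign. Between genotypes *Clec4e* in MPPs was 0.07 with median ratio scaling and *Clec12a* in CD115- CDPs -0.09 rescaled to TPM, which moved the median of all genes there from -0.07 to -0.18, and between WT CLPs and WT CD115- CDPs *Clec12a* was -0.02 with median ratio scaling. Without single libraries the log2 fold changes between genotypes ran from -0.44 to 0.12 (*Clec10a*), -0.15 to 0.17 (*Clec4d*) and -0.22 to 0.23 (*Clec4e*) in MPPs, from -0.27 to 0.37 (*Clec12a*), -1.94 to 0.01 (*Clec7a*), -0.49 to 0.19 (*Clec4a2*) and -0.01 to 0.61 (*Clec4d*) in CD115- CDPs, and from -0.05 to 0.13 (*Clec12a*) in CLPs. Between WT CD115- CDPs and WT MPPs they ran from -0.82 to 1.13 (*Clec7a*) and -1.02 to 0.19 (*Clec4a1*), and between WT CLPs and WT CD115- CDPs from -0.63 to 0.41 (*Clec9a*), -0.12 to 0.42 (*Clec12a*), -0.88 to 0.02 (*Clec5a*), -1.19 to 0.02 (*Clec4a1*), -0.51 to 0.17 (*Clec4a2*) and -1.10 to 0.10 (*Clec4a3*). Apart from the libraries named, the cause was not tested. Over all genes, the calls in CD115- CDPs went from 8 lower and 5 higher to 178 and 46 with the replicate block, and the interaction test was passed by 304 genes without and 1077 with it. Without both libraries numbered 3 the calls over all genes were 156 and 67 in CD115- CDPs, and 520 and 273 in MPPs against 163 and 20 with them. No filter gave 1 lower and 2 higher in CD115- CDPs. A pseudocount of 0.1 gave 245 lower in MPPs, 148 higher in CLPs against 83, and, between WT populations, 1047 lower against 647 (CD115- CDPs less MPPs) and 146 against 97 (CLPs less CD115- CDPs), and 189 genes passed the interaction test with it. At this depth, values of *Clec4a1* and *Clec4a3* in KO-labelled libraries rest on about 2 reads at most, as do those of *Clec9a* except in CD115- CDP KO 3.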
